A study of Mus musculus with 24 samples.

Results

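Callosal projection neurons (CPN) and corticothalamic projection neurons (CThPN) of the mouse neocortex were compared at postnatal day (P) 48 by RNA-seq of sorted cells. Cux2 CPN came from Cux2-CreERT2:Ai14 mice, in which a tamoxifen-inducible Cre expressed from the Cux2 gene marks upper layer neurons. Tle4 CThPN came from Tle4-2A-CreERT2:Ai14 mice, in which the same kind of Cre expressed from the Tle4 gene marks layer 6 neurons. The labels give the strain of both groups as C57BL/6, and the methods as a mixed C57BL/6J background. Both groups carried the Ai14 reporter, which makes the red fluorescent protein tdTomato once Cre has acted, and were given 4-Hydroxytamoxifen through the pregnant mother late in embryonic development. Somatosensory and motor cortex were dissociated with papain, and tdTomato-positive cells were collected by fluorescence-activated cell sorting (FACS). Each group was sequenced as 2 libraries, and by the study's methods a library pooled 10 animals, 5 male and 5 female, from 2 litters. The methods also state that the Cux2-CreERT2 line labels some interneurons. By the methods, single-cell sequencing of cells labelled in the same way found few cells with interneuron markers. That count took Cux2 CPN and Tle4 CThPN cells of several ages together.

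Callosal projection neurons of the upper layers send axons through the corpus callosum to the other hemisphere and connect cortical areas with one another. Corticothalamic projection neurons of layer 6 send axons to the thalamus and feed back on the nuclei that relay sensory and motor information. During development their identities are set by different transcription factors, among them Cux1 and Cux2 on the callosal side and Fezf2, Tbr1 and Foxp2 on the corticothalamic side. In the adult cortex the cells also differ in the channels, receptors, peptides and adhesion molecules with which they work.

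The deposited values are FPKM, that is, fragments scaled by transcript length and by the number of mapped fragments, with 1 value per gene for each group, computed by the authors over both of its libraries. No difference at P48 therefore has a replicate error, no test was possible, and every value describes these pooled libraries. The class difference used throughout is log2(FPKM + 1) in Cux2 CPN minus log2(FPKM + 1) in Tle4 CThPN, a scale on which differences between low values come out too small. Of the 9767 genes in the table, 8060 reached at least 10 FPKM in 1 of the classes at P48 and 1707 did not. Of the 8060, 52 were left out by their names, 41 with the prefixes of microRNAs, small nucleolar RNAs or clone names and 11 predicted Gm genes listed at 0 in every group of 1 class. The remaining 8008 genes are described here. At the expression minimum, 2410042D21Rik (10.0 FPKM in its higher class) lay just inside and Aldh1l1, at 9.9967 FPKM, just outside.

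Most genes had similar levels in both classes at P48. The median class difference over the 8008 genes was 0.02, the quartiles were -0.25 and 0.31, and 7079 genes (88.4%) differed by less than 1. A class difference of at least 1.5 was seen for 524 genes (6.54%). Of these, 253 (3.16% of all genes described) were on the callosal side and 271 (3.38%) on the corticothalamic side, so the counts were similar in both directions. Npas4 (1.5004) and Dok5 (-1.5035) were the last genes inside this limit, and Tmem44 (1.497) and Rwdd2a (-1.49) the first outside. By the way they were chosen, these genes had at least 10 FPKM in 1 class and a lower level in the other. In the CPN-higher genes the median was 26.3 FPKM in Cux2 CPN against 3.70 FPKM in Tle4 CThPN, and in the CThPN-higher genes it was 27.5 FPKM in Tle4 CThPN against 3.88 FPKM in Cux2 CPN. The lower class was under 1 FPKM for 44 of the CPN-higher and 38 of the CThPN-higher genes, and listed at 0 for 4 and 12. The difference reached 3 for 78 and 71 genes.

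**Figure D1:**
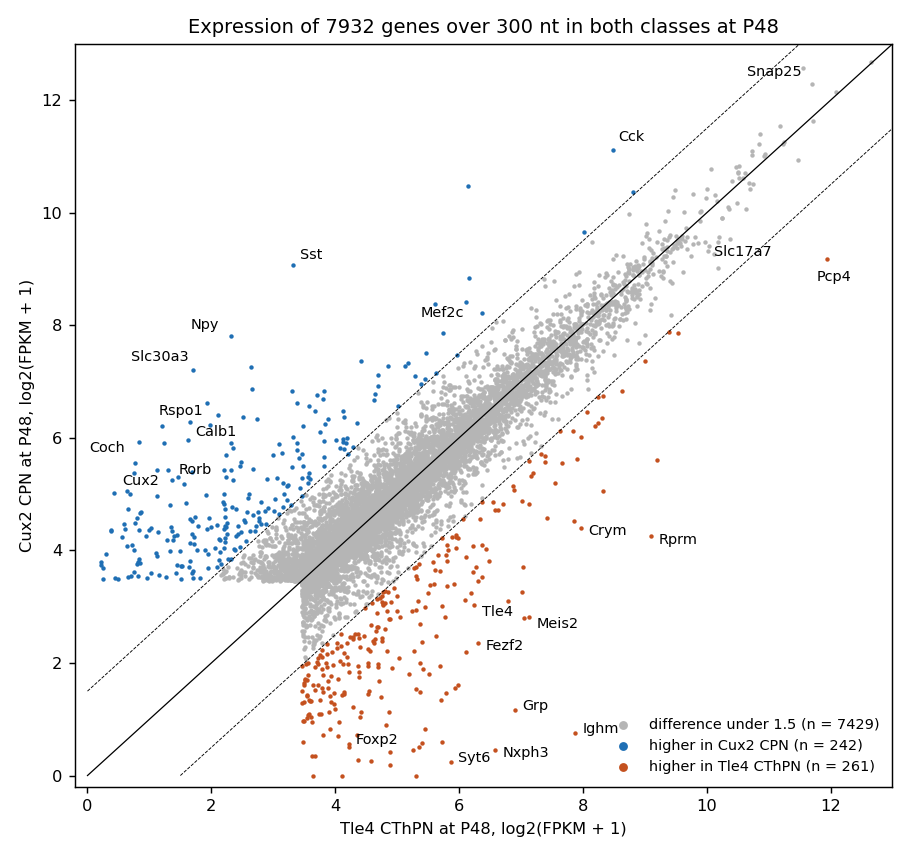
Expression at P48 of the 7932 genes with annotated exons of more than 300 nt, as log2(FPKM + 1) in Tle4 CThPN (horizontal) and Cux2 CPN (vertical), 1 point per gene and 1 pooled value per class. The solid line marks equal levels and the dashed lines a difference of 1.5, beyond which 242 genes lie towards Cux2 CPN and 261 towards Tle4 CThPN.

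Most markers of the cells each label names were higher in the group with that label. Among the transcription factors of callosal and upper layer neurons, 9 of 12 passed the expression minimum, 7 of them (77.8%, against 3.16% of all genes described) were higher in Cux2 CPN by at least 1.5, and the median difference was 2.41. Cux2 itself, the gene that drives Cre in this line (chromosome 5, 122308396 to 122500111, minus strand, NCBIM37), had 31.0 FPKM in Cux2 CPN against 0.61 FPKM in Tle4 CThPN. Its paralog Cux1 had 75 and 13.3 FPKM, and the nuclear receptor Rorb, known from layer 4 and upper layer neurons, 37.2 and 1.57 FPKM. Among the corticothalamic and deep layer transcription factors, 13 of 14 passed the minimum, 10 (76.9%, against 3.38% of all genes) were higher in Tle4 CThPN, and the median difference was -2.97. Tle4, which drives Cre in the other line (chromosome 19, 14522562 to 14672473, minus strand), had 7.15 FPKM in Cux2 CPN against 75 FPKM in Tle4 CThPN. Foxp2, a forkhead factor of layer 6, had 0.38 and 37.4 FPKM, and Fezf2, a zinc finger factor of deep layer projection neurons, 4.14 and 78.6 FPKM. Tbr1 was listed higher in Tle4 CThPN but short of the limit, at 47.7 against 103 FPKM (-1.10). Foxp1, of the same list, was listed higher in Cux2 CPN, at 155 against 65.9 FPKM (1.22).

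Surface and cytoplasmic markers followed the same division with few exceptions. Of the layer 2/3 and 4 markers, 8 of the 13 that passed the minimum (61.5%, against 3.16% of all genes) were higher in Cux2 CPN, among them the calcium buffer Calb1 (61.3 against 2.09 FPKM) and the Ras exchange factor Rasgrf2 (36.9 against 4.10 FPKM). Cdh13, a cadherin, was past the limit the other way, with 17.6 FPKM in Cux2 CPN against 62.1 FPKM in Tle4 CThPN, and the pentraxin Nptx2 was listed higher in Tle4 CThPN short of it, at 34.0 against 56.3 FPKM. Of the layer 6 corticothalamic markers, 11 of 12 (91.7%, against 3.38% of all genes) were higher in Tle4 CThPN. They included Rprm (18 against 548 FPKM) and the thyroid hormone binding protein Crym (20.1 against 250 FPKM). The neurotensin receptor Ntsr1, whose Cre line is widely used for layer 6 corticothalamic cells, stayed under the minimum at 3.12 and 6.50 FPKM.

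The Tle4 CThPN libraries also held transcripts known from neighbouring deep layer cells. All 4 layer 6b genes that passed the minimum were higher there: the growth factor Ctgf (1.76 against 54.1 FPKM), the complexin Cplx3 (0.85 against 27.2 FPKM), the dopamine receptor Drd1a (0.42 against 17.7 FPKM) and Tmem163 (1.83 against 22.3 FPKM). Of the 6 layer 5 genes, 3 (50%, against 3.38% of all genes) were higher in Tle4 CThPN, namely Ldb2, Pcp4 and Sulf2, and 1, S100a10, in Cux2 CPN. Some of these genes are also expressed in layer 6 itself. Whether few layer 6b cells with much of a transcript or many cells with little of it gave these levels cannot be told apart in pooled cells.

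Other cell types were represented unevenly between the classes. The 17 interneuron markers in the table summed to 900 FPKM in Cux2 CPN against 88.1 FPKM in Tle4 CThPN, and 15 of the 17 were listed higher in Cux2 CPN. Gad1 and Gad2, the GABA-synthesising enzymes, had 27.8 and 12.7 FPKM in Cux2 CPN but 2.00 and 0.79 FPKM in the other class. The interneuron factor Lhx6 was at 3.99 and 0.22 FPKM. Sst and Npy made up most of the sum in Cux2 CPN, and the other 15 markers summed to 139 against 75.1 FPKM, with 13 of the 15 listed higher in Cux2 CPN. The 14 glutamatergic neuron markers summed to 7881 FPKM in Cux2 CPN against 5960 FPKM in Tle4 CThPN, 10 of the 14 were listed higher in Cux2 CPN, and the median difference was 0.29. Snap25 alone, at 5026 against 3324 FPKM, made up most of both sums. Among the other markers the kinase Camk2a had 216 against 113 FPKM and the calmodulin-binding protein Nrgn 887 against 520 FPKM, while the vesicular glutamate transporter Slc17a7 had 713 against 1003 FPKM. Astrocyte markers lay the other way: the 8 in the table summed to 130 FPKM in Cux2 CPN against 420 FPKM in Tle4 CThPN, and 6 of the 7 that passed the minimum (85.7%, against 3.38% of all genes) were higher in Tle4 CThPN, among them the connexins Gja1 (6.05 against 53.6 FPKM) and Gjb6 (2.75 against 29.2 FPKM). Oligodendrocyte lineage markers summed to 218 and 117 FPKM, microglial markers to 33.2 and 20.7 FPKM, vascular markers to 21.8 and 36.4 FPKM, and blood markers to 79.8 and 20.8 FPKM, with no marker of these lists at 0 in either class. Genes induced by dissociation or activity summed to 2755 FPKM in Cux2 CPN against 1877 FPKM in Tle4 CThPN, and 1 of 15 (6.67%, against 3.16% of all genes), Npas4, passed 1.5, at the limit itself (1.5004, and 1.49 after median ratio scaling). How far these cells and states shaped the class differences was not tested.

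The largest difference towards Cux2 CPN in a gene of more than 300 nt was that of the neuropeptide Sst, with 538 FPKM in Cux2 CPN against 8.96 FPKM in Tle4 CThPN (5.76). Npy, another neuropeptide, had 222 and 3.97 FPKM (5.49). Sst and Npy are themselves members of the interneuron list, and without them its sum was 139 against 75.1 FPKM. Next to them stood genes of other kinds. Slc30a3, the transporter that loads zinc into synaptic vesicles (chromosome 5, 31388479 to 31395988, minus strand), had 147 and 2.25 FPKM (5.51). Rspo1, a secreted enhancer of Wnt signalling (chromosome 4, 124663674 to 124686343, plus strand), had 73.5 and 1.30 FPKM (5.02). Coch, a secreted matrix protein known from the inner ear, had 60.1 and 0.79 FPKM (5.10). Further down stood the sarcomere protein Tcap (46.0 and 0.69 FPKM), the carbonic anhydrase Car4 (97.7 and 2.81 FPKM), the Nogo receptor relative Rtn4rl1 (58.9 and 1.36 FPKM), the copine Cpne9 (152 and 5.20 FPKM), the small heat shock protein Hspb3 (40.5 and 0.68 FPKM) and the calcium buffer Ocm (31.4 and 0.35 FPKM). In Tle4 CThPN none of these 6 reached 6 FPKM.

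Towards Tle4 CThPN the largest difference was that of Ighm, which encodes the constant region of the immunoglobulin mu heavy chain (chromosome 12, 114659078 to 114660941, minus strand), with 0.68 FPKM in Cux2 CPN against 235 FPKM in Tle4 CThPN (-7.13). Nxph3, a secreted ligand of alpha-neurexins (chromosome 11, 95371159 to 95375884, minus strand), had 0.37 and 94.8 FPKM (-6.13). Grp, which encodes gastrin-releasing peptide, had 1.24 and 119 FPKM (-5.75), and Syt6, a synaptotagmin (chromosome 3, 103379154 to 103449490, plus strand), 0.18 and 57.4 FPKM (-5.63). These 4 genes were near the floor in Cux2 CPN and abundant in Tle4 CThPN. The keratin Krt80 was listed at 0 in Cux2 CPN and at 38.5 FPKM in Tle4 CThPN. Lsp1, an actin-binding protein known from leukocytes, had 0.50 and 51.7 FPKM, and the adaptor Sla, likewise known from lymphocytes, 0.49 and 41.5 FPKM. The glycine receptor subunit Glra2 (chromosome X, 161566949 to 161765325, minus strand) had 0.42 and 40.1 FPKM (-4.86).

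Very short entries also took part in the extremes and are reported apart, since length scaling makes their FPKM unstable. Among the genes past 1.5, 8 of the CPN-higher and 10 of the CThPN-higher had annotated exons of up to 300 nt. The pseudogene Gm12563, with exons of 102 nt, was listed at 652161 FPKM in Cux2 CPN against 67.3 FPKM in Tle4 CThPN, and 4 entries named U6 were listed at 0 in Cux2 CPN and at 33.0 to 55.3 FPKM in Tle4 CThPN. Protein-coding genes made up 233 (92.1%) of the CPN-higher and 248 (91.5%) of the CThPN-higher genes, against 96.8% of all genes described.

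The 250 bases before the annotated start are shown for 4 genes that differ in their course over age as well as at P48: Cux2, past 1.5 at all 6 ages, Rspo1, which differed only from P21 on, Syt6, past 1.5 at all 6 ages in the other direction, and Glra2, whose level in Cux2 CPN changed from 24.1 FPKM (E18.5) to 0.42 FPKM (P48). The sequences are from RefSeq on build GRCm38.p6, written 5′ to 3′ on the strand of the gene. They lie at chr5:122047826-122048075 on the minus strand (Cux2), chr4:124986180-124986429 on the plus strand (Rspo1), chr3:103574995-103575244 on the plus strand (Syt6) and chrX:165327394-165327643 on the minus strand (Glra2), and for Cux2 and Syt6 they belong to 1 of several starts. Capitals mark matches to 3 short motifs that were searched on both strands: a motif of ROR and other nuclear receptors (AGGTCA), a forkhead core (TGTTTAC) and a SOX core (ACAATG), which do not overlap here.
Cux2: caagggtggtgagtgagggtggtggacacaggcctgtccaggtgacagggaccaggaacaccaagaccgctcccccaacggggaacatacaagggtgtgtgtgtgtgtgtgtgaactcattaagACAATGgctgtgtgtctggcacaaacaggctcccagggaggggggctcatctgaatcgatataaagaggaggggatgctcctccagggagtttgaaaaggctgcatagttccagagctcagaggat
Rspo1: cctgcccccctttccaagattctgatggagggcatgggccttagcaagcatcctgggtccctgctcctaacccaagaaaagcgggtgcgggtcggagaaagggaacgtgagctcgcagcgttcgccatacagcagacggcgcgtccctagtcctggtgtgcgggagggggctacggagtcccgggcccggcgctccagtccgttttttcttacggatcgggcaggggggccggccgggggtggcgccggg
Syt6: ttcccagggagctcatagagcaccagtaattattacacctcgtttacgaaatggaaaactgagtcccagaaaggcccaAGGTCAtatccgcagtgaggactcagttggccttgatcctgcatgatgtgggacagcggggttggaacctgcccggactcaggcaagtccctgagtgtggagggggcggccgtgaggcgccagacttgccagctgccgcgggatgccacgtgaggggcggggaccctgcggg
Glra2: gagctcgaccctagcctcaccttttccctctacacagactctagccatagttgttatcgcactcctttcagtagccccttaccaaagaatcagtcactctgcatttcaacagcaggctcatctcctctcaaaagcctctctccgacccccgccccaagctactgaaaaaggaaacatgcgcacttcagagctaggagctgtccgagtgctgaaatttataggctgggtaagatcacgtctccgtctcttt

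In the Cux2 window the SOX core starts 126 bases before the gene start, and in the Syt6 window the nuclear receptor motif starts 172 bases before it. The other Cux2 window held none of the 3 motifs, and of the other Syt6 windows, that overlapping the one shown held the same match and the last held none. The windows of Rspo1 and Glra2 held none of the 3 letter strings. Matched by symbol, 183 of 252 CPN-higher symbols and 175 of 268 CThPN-higher symbols had at least 1 window. The nuclear receptor motif was present in 15.1% of the 252 CPN-higher windows, 9.13% of the 263 CThPN-higher windows, 10.0% of the 7629 windows of all genes described and 14.0% of all 32851 promoter windows. The forkhead core was present in 2.78%, 2.66%, 1.93% and 3.17% of them, and the SOX core in 4.37%, 5.32%, 5.73% and 10.7%. A match is a string of letters in a window and was not tied to binding of a factor.

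Transcription factors were past the limit in both directions. Of 105 members of the transcription factor families searched, 16 (15.2%) were higher in Cux2 CPN and 17 (16.2%) in Tle4 CThPN, against 3.16% and 3.38% of all genes described, and the median difference was 0.13. The families include factors of the marker lists. Of the 73 members in none of those lists, 7 (9.59%) were higher in each class, and the median was 0.02. Among all members, higher in Cux2 CPN were the basic helix-loop-helix factor Neurod1 (12.4 against 0.17 FPKM), the nuclear receptor Rora (50.6 against 6.97 FPKM) and Mef2c, an activity-regulated MADS box factor (297 against 81.9 FPKM). Higher in Tle4 CThPN were Bcl11b, a zinc finger factor of subcortical projection neurons (0.77 against 42.6 FPKM), Tshz2 (0.33 against 28.5 FPKM), the homeodomain factor Meis2 (6.02 against 139 FPKM) and the HMG box factor Tox2 (3.63 against 37.6 FPKM). Of these 7, Meis2 and Tox2 are in no marker list. Some paralogs lay on the same side, as Cux1 with Cux2 and Rora with Rorb, and others did not. Tshz1 was higher in Cux2 CPN, at 14.6 against 1.15 FPKM, while Tshz2 was higher in Tle4 CThPN. Likewise the corepressor Tle1 had 27.3 FPKM in Cux2 CPN against 3.60 FPKM in Tle4 CThPN, the reverse of Tle4. Foxp1 was listed higher in Cux2 CPN, short of the limit, while Foxp2 was higher in Tle4 CThPN. Id2 (215 and 203 FPKM), Nfix (228 and 186 FPKM) and Tcf25 (338 and 371 FPKM) were abundant in both classes.

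**Figure D2:**
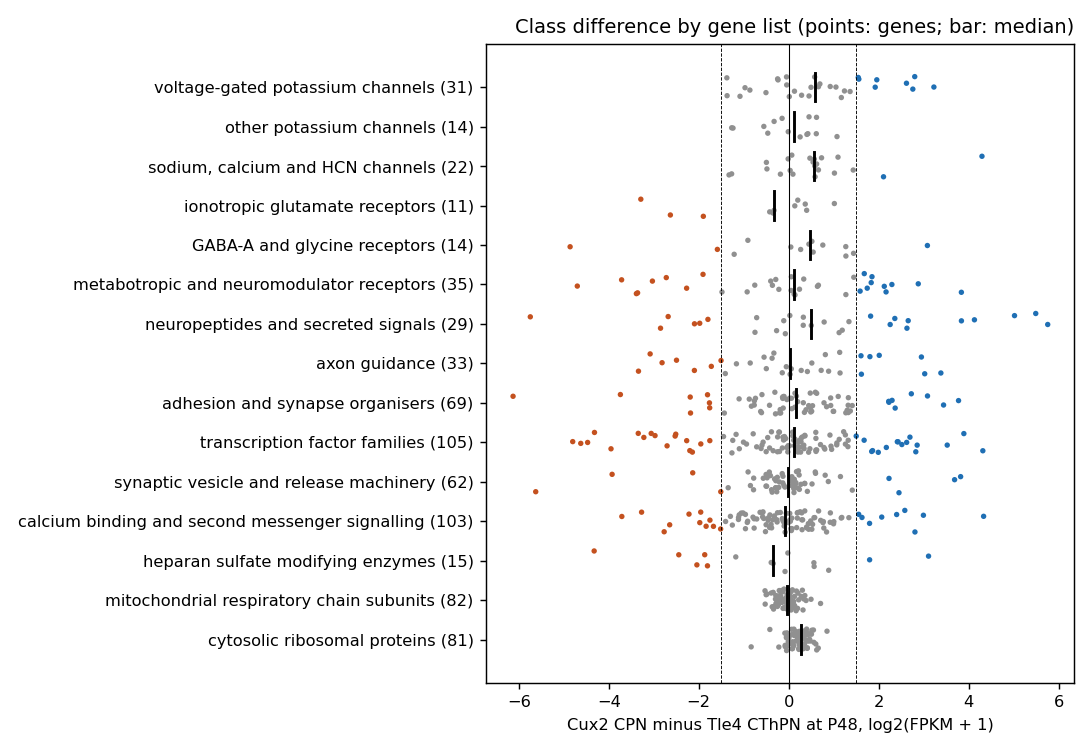
Class difference at P48, as log2(FPKM + 1) in Cux2 CPN minus Tle4 CThPN, for the genes of 15 lists that passed the expression minimum (number in parentheses). Each point is a gene, bars are list medians, and dashed lines mark 1.5 in each direction, past which no gene of the respiratory chain or the cytosolic ribosome lies while 8 voltage-gated potassium channel genes lie towards Cux2 CPN.

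The voltage-gated ion channel genes past the limit were all on the callosal side. Of 31 voltage-gated potassium channel genes and their auxiliary subunits, 8 (25.8%) were higher in Cux2 CPN and 0 in Tle4 CThPN by at least 1.5, against 3.16% and 3.38% of all genes described, with a median of 0.58. The auxiliary subunit Kcnab3 had 96.9 FPKM in Cux2 CPN against 9.45 FPKM in Tle4 CThPN (3.23). The fast-gating Kv3 channel gene Kcnc2 had 17.2 and 1.61 FPKM, the ether-a-go-go channel gene Kcnh5 42.4 and 5.41 FPKM, and the delayed rectifier gene Kcnb2 18.7 and 2.2 FPKM. Kcnc2 is also abundant in fast-spiking interneurons. Smaller differences were seen for Kcns1, Kcnq5, Kcnip4 and Kcna2, from 1.96 down to 1.55. The auxiliary subunits Kcnip3 (112 and 133 FPKM), Dpp10 (69.7 and 72.1 FPKM) and Kcnab2 (57.1 and 67.5 FPKM) were near equal. With a limit of 1, 12 potassium channel genes were higher in Cux2 CPN and 3 in Tle4 CThPN, so the second class was not without such genes. Of 14 inward rectifier, leak and calcium-activated potassium channel genes, 0 passed 1.5 either way.

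Among 22 sodium, calcium and HCN channel genes, 2 were past 1.5, both higher in Cux2 CPN (9.09%, against 3.16% of all genes). They were the calcium channel auxiliary subunit Cacna2d3, with 83.9 against 3.32 FPKM (4.30), and the T-type calcium channel Cacna1g, with 15.1 against 2.74 FPKM (2.11). The subunits Cacnb4 (175 and 171 FPKM), Scn2a1 (75.5 and 54.2 FPKM) and Cacnb1 (53.0 and 74.5 FPKM) differed by less than 0.5.

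Transmitter receptors were split. Of 11 ionotropic glutamate receptor genes, 3 (27.3%, against 3.38% of all genes) were higher in Tle4 CThPN and 0 in Cux2 CPN. The kainate receptor subunits Grik3 and Grik4 had 1.18 and 1.47 FPKM in Cux2 CPN against 20.3 and 14.3 FPKM in Tle4 CThPN, and the AMPA receptor subunit Gria3 15.6 against 60.8 FPKM. The obligatory NMDA receptor subunit Grin1 was close to equal at 127 and 116 FPKM, as were Gria1 (46.9 and 59.1 FPKM) and Gria2 (118 and 89.5 FPKM). Of 14 genes of GABA-A and glycine receptors and their scaffold, 1 (7.14%) was past the limit in Cux2 CPN and 2 (14.3%) in Tle4 CThPN. The shares of all genes were 3.16% and 3.38%. Gabra2 was the 1 past the limit in Cux2 CPN, with 46.3 against 4.59 FPKM (3.08). Glra2 and Gabrg3 (4.70 against 16.1 FPKM) were past it in Tle4 CThPN. The GABA-A alpha subunits therefore differed in direction: Gabra4 had 80.7 and 47.3 FPKM, higher in Cux2 CPN but short of 1.5, while Gabra3 had 20.4 and 48.6 FPKM and Gabra5 30.2 and 57.5 FPKM.

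Receptors for neuromodulators and metabotropic receptors differed often and in both directions, with 10 of 35 (28.6%) past the limit towards Cux2 CPN and 8 (22.9%) towards Tle4 CThPN, against 3.16% and 3.38% of all genes. On the callosal side stood the corticotropin-releasing hormone receptor Crhr1 (38.6 against 1.77 FPKM), the presynaptic glutamate receptor Grm2 (102 against 13 FPKM), the adrenergic receptors Adra1d (12.4 against 1.73 FPKM) and Adrb1 (37.8 against 11.1 FPKM), the histamine receptors Hrh3 (60.7 against 13.2 FPKM) and Hrh1 (31.1 against 8 FPKM), and the serotonin receptor Htr2a (11.9 against 2.85 FPKM). The cannabinoid receptor Cnr1, with 19.1 against 4.58 FPKM, is also strongly expressed by a class of interneurons. On the corticothalamic side stood the nicotinic acetylcholine receptor subunits Chrna5 (0.14 against 28.6 FPKM) and Chrna4 (2.48 against 35.5 FPKM), the dopamine receptor Drd1a, the somatostatin receptors Sstr4 (3.01 against 40.2 FPKM) and Sstr2 (8.42 against 44.4 FPKM), and the glutamate receptor Grm8 (4.17 against 41.3 FPKM). Both nicotinic subunits past the limit, and both somatostatin receptors, were thus on the Tle4 CThPN side, and both adrenergic and both histamine receptors past it on the Cux2 CPN side. The GABA-B receptor subunits Gabbr1 (253 and 244 FPKM) and Gabbr2 (79.4 and 105 FPKM) and the adenosine receptor Adora1 (73.0 and 94.1 FPKM) were near equal.

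**Figure D3:**
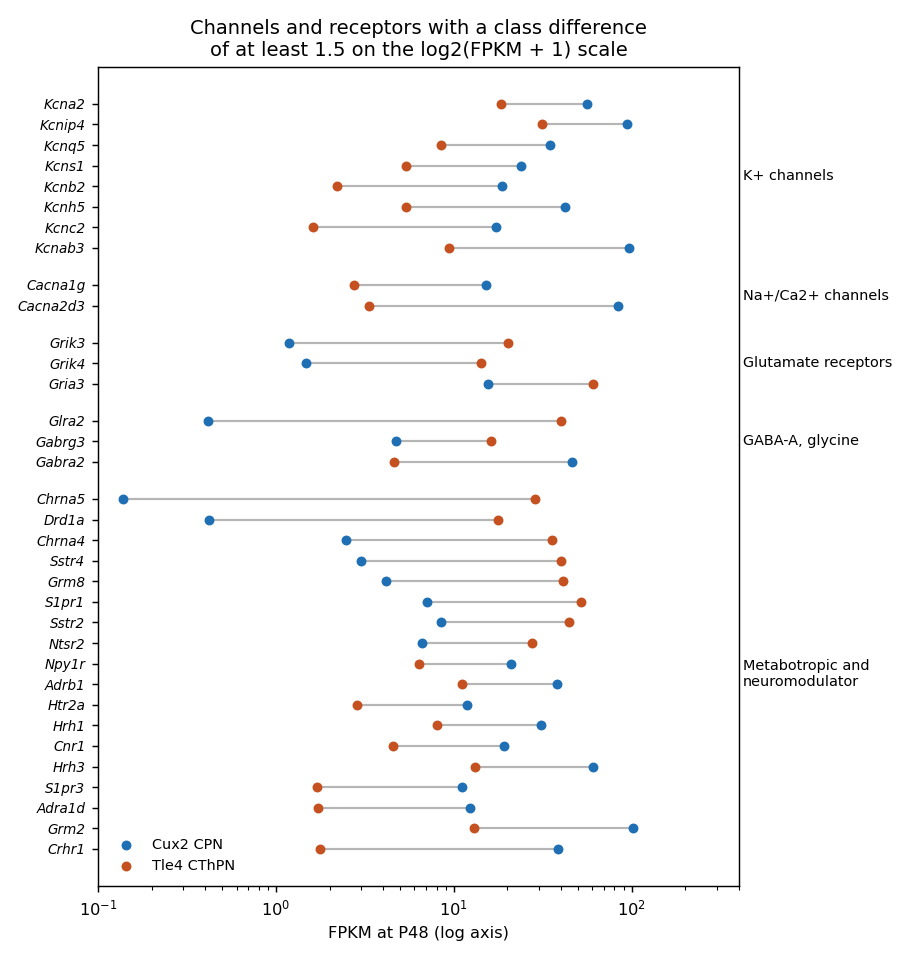
FPKM at P48, on a log axis, of the 34 channel and receptor genes with a class difference of at least 1.5, with Cux2 CPN in blue and Tle4 CThPN in orange, 1 pooled value each. All 10 potassium, sodium and calcium channel genes shown are higher in Cux2 CPN, all 3 glutamate receptor channel genes are higher in Tle4 CThPN, and the neuromodulator receptors divide 10 to 8.

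Secreted signals often differed between the classes. Of 29 neuropeptides, growth factors and related signals, 10 (34.5%) were higher in Cux2 CPN and 6 (20.7%) in Tle4 CThPN, against 3.16% and 3.38% of all genes. The cholecystokinin precursor Cck reached 2207 FPKM in Cux2 CPN against 356 FPKM in Tle4 CThPN (2.63), so it was abundant in both. The neurotrophin Bdnf had 20.7 against 2.45 FPKM, the peptide precursor Adcyap1, which gives PACAP, 30.1 against 1.17 FPKM, and Fam19a2 41.9 against 1.45 FPKM. Penk, the enkephalin precursor, had 21 against 3.28 FPKM. Sst, Npy and Vip (14.6 against 3.43 FPKM) are interneuron peptides and belong to that marker list as well. Higher in Tle4 CThPN, after Grp, were the insulin-like growth factor binding protein Igfbp4 (22.8 against 171 FPKM), the R-spondin Rspo2 (1.70 against 16.3 FPKM), the granin Scg3 (46.2 against 201 FPKM), the pentraxin Nptx1 (73.0 against 291 FPKM) and Wnt7b (3.90 against 16.0 FPKM). The R-spondins Rspo1 and Rspo2 were thus on opposite sides. The granins Chgb (413 and 498 FPKM) and Chga (174 and 188 FPKM) were near equal.

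Axon guidance genes were split evenly, 7 of 33 (21.2%) to each class, against 3.16% and 3.38% of all genes. Cux2 CPN had more of the netrin receptor Unc5d (16.1 against 0.64 FPKM), netrin-G1 (Ntng1, 13.4 against 0.77 FPKM), the plexin Plxnd1 (12.5 against 0.74 FPKM), the ephrin Efnb2 (22.3 against 4.77 FPKM) and the receptor Epha4 (63.0 against 17.3 FPKM). Tle4 CThPN had more of the semaphorins Sema5a (0.63 against 15.5 FPKM), Sema5b (0.66 against 13 FPKM) and Sema3e (1.13 against 11 FPKM), the semaphorin receptor Nrp1 (1.28 against 15 FPKM) and the Robo ligand Slit1 (5.85 against 28.3 FPKM). All 4 semaphorins past the limit, with Sema4a (22.6 against 65.9 FPKM), were on the corticothalamic side. Sema3e binds Plxnd1, so ligand and receptor lay in different classes.

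Adhesion molecules and synapse organisers were past the limit in both directions, 8 of 69 (11.6%) towards Cux2 CPN and 7 (10.1%) towards Tle4 CThPN, against 3.16% and 3.38% of all genes. The neurexophilins past the limit, secreted ligands of the presynaptic neurexins, were both higher in Tle4 CThPN: Nxph3, and Nxph1 with 9.57 against 47.2 FPKM. Cux2 CPN had more of the protocadherin Pcdh20 (22.8 against 0.74 FPKM), the cerebellin Cbln4 (15.9 against 0.55 FPKM), the nectin Pvrl3 (30.8 against 2.75 FPKM) and the cadherins Cdh12 (23.1 against 3.67 FPKM) and Cdh10 (37.9 against 7.33 FPKM). Tle4 CThPN had more of the immunoglobulin superfamily member Igsf21 (8.63 against 128 FPKM), Lrrtm3 (15.1 against 55.4 FPKM) and the cadherins Cdh9, Cdh13 and Cdh18. The calsyntenins Clstn1 (638 and 656 FPKM) and Clstn3 (162 and 183 FPKM) were near equal. Classical cadherins thus appeared on both sides.

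Of 62 vesicle and release genes, 4 (6.45%) were higher in each class, against 3.16% and 3.38% of all genes, and the median was -0.03. Synpr (24.7 against 0.82 FPKM), a vesicle membrane protein, Syt17 (17.9 against 0.47 FPKM), the active zone protein Rims3 (79.8 against 13.8 FPKM) and Stxbp6 (82.2 against 16.7 FPKM) were higher in Cux2 CPN. Syt6, Cplx3, Syt10 (1.66 against 10.7 FPKM) and Syt12 (8.54 against 26.2 FPKM) were higher in Tle4 CThPN. The calcium sensor of fast release Syt1 (743 and 631 FPKM) and Rab3a (853 and 812 FPKM) were near equal.

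Calcium binding and second messenger genes numbered 103, of which 9 (8.74%) were higher in Cux2 CPN and 11 (10.7%) in Tle4 CThPN, against 3.16% and 3.38% of all genes. The calmodulin-binding protein Pcp4 was among the 5 most abundant genes of Tle4 CThPN, at 3940 FPKM, and had 577 FPKM in Cux2 CPN (-2.77). Prkcc, the gamma isoform of protein kinase C, had 32.2 against 320 FPKM, and Ppp1r1b, which encodes the phosphatase inhibitor DARPP-32, 80.9 against 317 FPKM. Both endogenous inhibitors of CaM kinase II were on the callosal side, Camk2n1 with 88.3 against 11.8 FPKM and Camk2n2 with 51.8 against 7.83 FPKM, while the kinase's delta subunit Camk2d had 13.8 against 68.0 FPKM. Regulators of G protein signalling parted within the family: Rgs2, Rgs3 and Rgs4 (805 against 260 FPKM) were higher in Cux2 CPN, and Rgs8, Rgs9 and Rgs16 in Tle4 CThPN. Calmodulin itself was near equal, with 4561 and 4362 FPKM of Calm2.

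Among 15 enzymes that make or modify heparan sulfate, a sugar chain that binds many secreted signals, 5 (33.3%) were higher in Tle4 CThPN and 2 (13.3%) in Cux2 CPN, against 3.38% and 3.16% of all genes. The sulfatases Sulf1 (0.20 against 23.0 FPKM) and Sulf2 (25.2 against 94.7 FPKM) and the sulfotransferases Hs3st4 (9.32 against 55.1 FPKM) and Hs3st2 (32.8 against 117 FPKM) were on the corticothalamic side, and Hs3st1 (41.9 against 3.98 FPKM) on the callosal side. The matrix list was small, with 2 of 12 genes (16.7%) higher in Cux2 CPN and 4 (33.3%) in Tle4 CThPN. Of 44 neurofilament, tubulin and microtubule protein genes, 2 (4.55%) were higher in Cux2 CPN and 1 (2.27%) in Tle4 CThPN, shares near the 3.16% and 3.38% of all genes. These were Tuba8 (25.6 against 0.57 FPKM) and Dcx (13.4 against 3.97 FPKM) in the first and Dpysl5 (1.41 against 14.8 FPKM) in the second. Listed genes of the respiratory chain and the cytosolic ribosome were close to equal. None of 82 respiratory chain genes passed 1.5, with differences from -0.53 to 0.71 and a median of -0.04, and none of 81 cytosolic ribosomal protein genes did, with a range of -0.84 to 0.85 and a median of 0.27. Other genes of metabolism were not read as a list, and some were past the limit. Towards Cux2 CPN these included mt-Atp8 (73.5 against 12.2 FPKM, exons of 204 nt) and Hkdc1 (18.2 against 1.64 FPKM). Towards Tle4 CThPN they included Aldoc (40.4 against 145 FPKM), which is also in the astrocyte list.

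The same class difference was then read at the 5 earlier ages of the series, E18.5 (an embryonic day), P1, P3, P7 and P21, which rest on other libraries. Of the 253 CPN-higher genes, 204 (80.6%) differed by at least 1.5 in the same direction at P21, 98 (38.7%) at P7, 78 (30.8%) at P3, 64 (25.3%) at P1 and 38 (15%) at E18.5. Over all 8008 genes, the share higher in Cux2 CPN was 3.33%, 2.72%, 2.47%, 1.86% and 1.37% at those ages. Of the 271 CThPN-higher genes, 196 (72.3%) did so at P21, 85 (31.4%) at P7, 78 (28.8%) at P3, 72 (26.6%) at P1 and 69 (25.5%) at E18.5, against 3.05%, 1.72%, 2.12%, 2.19% and 2.62% of all genes. The median difference of the CPN-higher genes was 0.08 at E18.5, 1.05 at P7, 2.30 at P21 and 2.45 at P48, and that of the CThPN-higher genes -0.58, -0.83, -2.26 and -2.23. The step between P7 and P21 was the largest in both sets. Every listed astrocyte marker was also higher at P21 than at P7 in both classes. In Tle4 CThPN, Gja1 went from 3.76 to 72.6 FPKM and Gjb6 from 0.19 to 42.2 FPKM. In Cux2 CPN, Gja1 went from 0.93 to 4.58 FPKM and Gjb6 from 0.16 to 5.91 FPKM. The part of astrocytes in the step was not tested. By the study's methods papain was used at 20 U/ml at P21 and P48, while the labels give 12 U/ml for all samples. Over the 7932 genes of more than 300 nt, the class differences at P48 had a Pearson correlation of 0.88 with those at P21, 0.58 with P7, 0.50 with P3, 0.42 with P1 and 0.30 with E18.5, given as a description across genes that share libraries within an age.

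**Figure D4:**
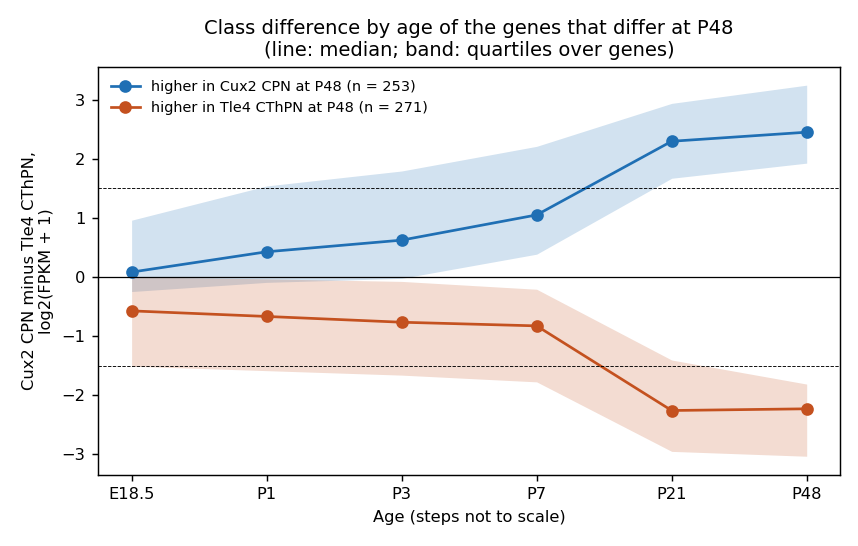
Class difference by age, as log2(FPKM + 1) in Cux2 CPN minus Tle4 CThPN, of the 253 genes higher in Cux2 CPN at P48 (blue) and the 271 higher in Tle4 CThPN (orange), with the median as a line and the quartiles over genes as a band. The medians at P48 follow from how the genes were chosen, and they go from 0.08 at E18.5 to 2.45 in the first set and from -0.58 to -2.23 in the second, with the widest step between P7 and P21.

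A minority of the genes carried the difference throughout. At all 6 ages, 24 of the 253 (9.49%) and 42 of the 271 (15.5%) were past 1.5. On the callosal side these included the transcription factors Cux1, Cux2, Lhx2 and Tle1, the secreted protein Fam19a2 and the receptors Grm2 and Gabra2. On the corticothalamic side they included Foxp2, Fezf2, Bcl11b, Sox5, Tle4, Nxph3, Syt6, Rprm and Drd1a. Cux2 had 73.0 FPKM in Cux2 CPN at E18.5 but 31.0 FPKM at P48, and in Tle4 CThPN 4.65 but then 0.61 FPKM, so its level was lower at P48 in both while the difference went from 3.71 to 4.32. Bcl11b came to differ more as its level in Cux2 CPN neared 0: it had 23.3 FPKM there at E18.5 but 0.77 FPKM at P48, beside 76.9 and 42.6 FPKM in Tle4 CThPN.

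At none of the 4 ages from E18.5 to P7 were 134 CPN-higher (53.0%) and 160 CThPN-higher (59.0%) genes past 1.5 in the direction of P48, and 120 (47.4%) and 151 (55.7%) were under 1.5 in either direction there. In a stricter group, past 1.5 at both P21 and P48 and under 0.5 in that direction at each of those 4 ages, there were 43 and 27 genes, of which 24 and 13 were under 0.5 in either direction. Rspo1 had at most 0.57 FPKM in either class up to P7, then 37.4 and 73.5 FPKM at P21 and P48 in Cux2 CPN against 0.50 and 1.30 FPKM in Tle4 CThPN. The troponin gene Tnnc1 went from 0.72 FPKM at P7 to 251 FPKM at P21 and 116 FPKM at P48 in Cux2 CPN, against 11.1 and 5.34 FPKM in Tle4 CThPN. Car4, Adam33 and the orphan receptor Gpr83 had the same course, low in both classes up to P7. Kcnab3 was present early in both classes and came to differ late, by 0.24 at P7, 2.58 at P21 and 3.23 at P48.

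On the corticothalamic side, Ighm was under 1 FPKM in both classes up to P7 and then reached 75 FPKM at P21 and 235 FPKM at P48 in Tle4 CThPN. Krt80 went from 0.05 FPKM at P7 to 12.0 and 38.5 FPKM, and Chrna5 from 2.39 FPKM to 9.94 and 28.6 FPKM. Tissue factor (F3) stood at 48 and 48.6 FPKM at P21 and P48 in Tle4 CThPN, and Gjb6 at 42.2 and 29.2 FPKM. Gjb6 is in the astrocyte list, whose sum there was 530 FPKM at P21 and 420 FPKM at P48. Other genes came to differ as their level ended lower in 1 class than in the other. Sla had 122 FPKM in Cux2 CPN at E18.5, 128 FPKM at P7 and 0.49 FPKM at P48, and 211, 144 and 41.5 FPKM in Tle4 CThPN. Dpysl5, a growth cone phosphoprotein, went from 203 FPKM at P7 to 1.41 FPKM in Cux2 CPN, while Tle4 CThPN went from 271 to 14.8 FPKM. The cell surface glycoprotein Cd24a (1308 FPKM in Cux2 CPN at E18.5 but 1.55 FPKM at P48, 769 and 51.4 FPKM in Tle4 CThPN) followed this course as well. Glra2 also ended lower in Cux2 CPN, but it was already past 1.5 towards Tle4 CThPN at an age from E18.5 to P7.

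**Figure D5:**
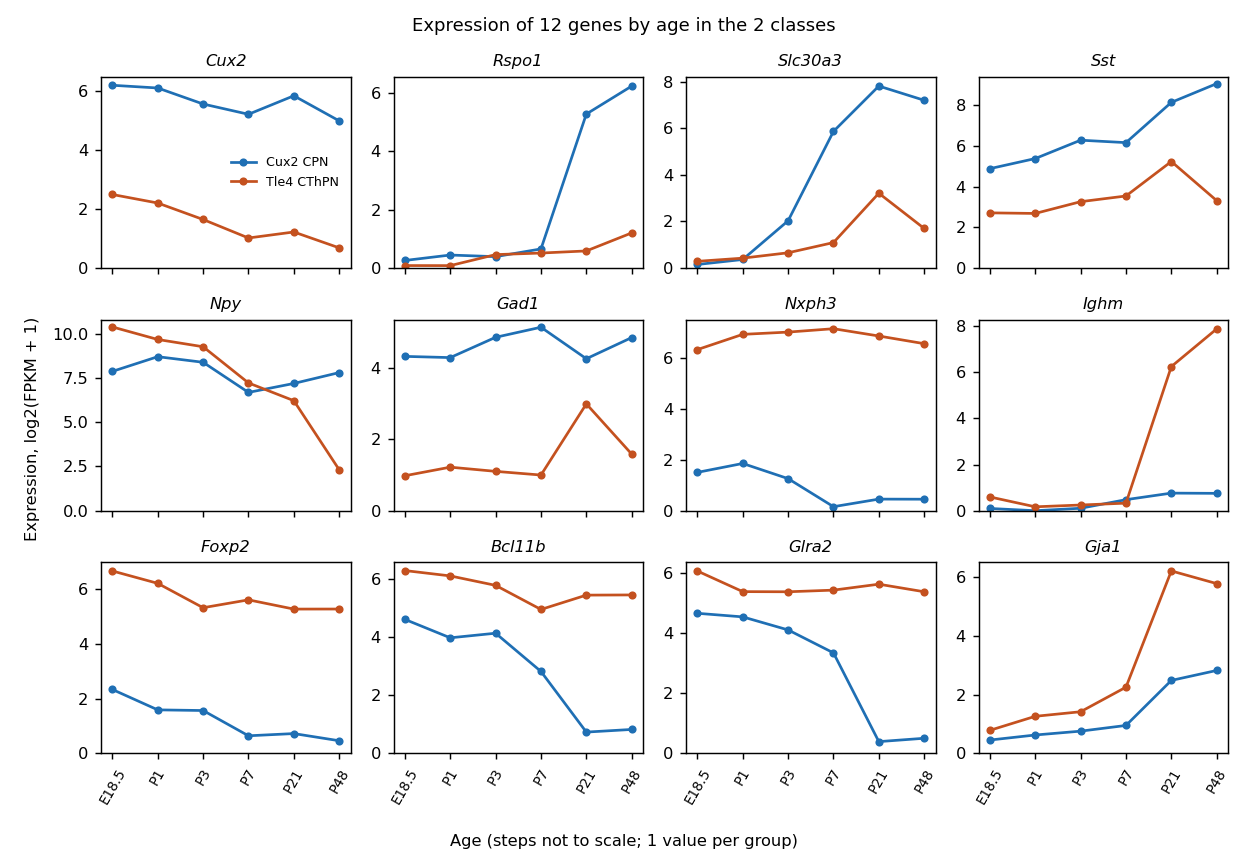
Expression of 12 genes by age, as log2(FPKM + 1), in Cux2 CPN (blue) and Tle4 CThPN (orange), 1 pooled value per group and age. Cux2, Nxph3 and Foxp2 are apart at all 6 ages, Rspo1 and Ighm part from P21 on, Bcl11b and Glra2 come near the floor in Cux2 CPN at P21, and Npy crosses between P7 and P21.

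Among the class differences that moved most between P21 and P48 were those of interneuron peptides. Sst went from 283 to 538 FPKM in Cux2 CPN, while Tle4 CThPN went from 36.8 to 8.96 FPKM, and Npy from 145 to 222 FPKM and from 73.4 to 3.97 FPKM. Their differences widened by 2.85 and 4.52. Over the same interval the sum of the 15 interneuron markers other than these went from 104 to 139 FPKM in Cux2 CPN, while Tle4 CThPN went from 112 to 75.1 FPKM, and the part of interneurons in the differences of Sst and Npy was not tested. Meis2 (from -2.86 to -4.32) and Rspo2 (from -0.96 to -2.68) widened on the corticothalamic side. Cisd3 was at 1428 FPKM in Cux2 CPN at P48 and 44.3 FPKM at P21, and had also stood at 1350 FPKM at P3 beside 28.6 FPKM at P7, so its difference of 4.34 at P48 was not stable over age.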

How the data were processed

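RNA-seq was performed by the authors on FACS-purified Cux2 CPN and Tle4 CThPN at 6 ages, with 2 libraries for each of the 12 groups, 24 in all, prepared by SMART-Seq v4 from 10 ng of RNA. The authors trimmed the reads, mapped them with TopHat2 to NCBIM37 (mm9) and ran Cuffdiff, which gave the 1 deposited FPKM value per gene and group. FPKM keep no read numbers. Depth is given in the methods only as above 20 M reads per library, so no counting interval was computed and the precision of single values is unknown.

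Genes of at least 10 FPKM in 1 of the P48 groups were kept, and a difference of log2(FPKM + 1), with a pseudocount of 1, of at least 1.5 was counted. The limits of 1.5 and 10 FPKM are those of the methods, which apply them to Cuffdiff's fold changes together with a test. Here the pseudocount makes the differences of low genes smaller, and no test was run. Values were computed with pandas 2.3.3 and numpy 2.4.6 under Python 3.11.15, drawn with matplotlib 3.10.9, and the code was tested on simulated data, in which 100 genes shifted in each direction were all recovered. Positions and lengths came from the GENCODE annotation of NCBIM37, which placed 7960 of the 8008 genes. For 44 genes another entry carries the same symbol, and their FPKM cannot be assigned to 1 locus. Promoter sequences came from RefSeq on GRCm38.p6.

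The members and the 32 gene lists were chosen with earlier results of these data known. The genes named are, in each direction, the 15 with the largest P48 difference, the 5 that moved most from P21 to P48, the 10 largest late-appearing ones, up to 6 past the limit for each list and up to 3 near-equal abundant members, up to 10 whose direction turned, the 5 most abundant in each class, and defining markers. Further list members, the other genes whose direction turned and genes past the limit at P48 alone were named after their values were seen. Alternatives were pseudocounts of 0.1 and 5, median ratio scaling, other minimums and limits, and leaving out short genes. Restricting to protein-coding genes and leaving out genes of other cell types were added after seeing the data, as were the interneuron sum without Sst and Npy, the count of transcription factors without the marker lists and the counts over age in either direction. The values of some genes of these lists are not reported here.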

Additional observations from a re-analysis of the deposited data

Results flagged for a closer look

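For 23 genes of more than 300 nt, 14 on the callosal and 9 on the corticothalamic side at P48, the class difference was at least 1.5 in that direction at P48 and at least 1.5 the other way at an age from E18.5 to P7. The 10 with the largest P48 difference are given first. Each age has 1 pooled value per class, and the change of direction was not tested. Among genes higher in Cux2 CPN at P48, Npy had a difference of 5.49 after -2.51 at E18.5, Ocm 4.58 after -1.64 at P1, Adcyap1 3.84 after -1.98 at E18.5, Penk 2.36 after -3.04 at E18.5, Whrn 2.21 after -2.64 at P3 and Gm11744 2.90 after -1.60 at P3. Npy is the clearest in level, at 233 against 1334 FPKM (Cux2 CPN first) at E18.5 but 222 against 3.97 FPKM at P48. Ocm and Adcyap1 were under 7 FPKM in both classes at the early age.

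Among the genes higher in Tle4 CThPN at P48, Tox2 had a difference of -3.06 after 2.52 at E18.5, Igfbp4 -2.85 after 2.29 at E18.5, Nos1ap -2.28 after 1.5003 at P7 and Nxph1 -2.19 after 3.85 at P3. Nxph1, a ligand of alpha-neurexins that interneurons also express, went from 70.9 to 9.57 FPKM in Cux2 CPN, while Tle4 CThPN went from 3.98 to 47.2 FPKM between P3 and P48. Nos1ap, an adaptor of neuronal nitric oxide synthase, stayed between 14.7 and 18.9 FPKM in Tle4 CThPN up to P7 and stood at 240 FPKM at P48.

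The other 13 differed less at P48. Those higher in Cux2 CPN at P48 were Cnih3 (2.12 after -2.32 at E18.5), Cav2 (1.89 after -1.51 at E18.5), the serotonin receptor Htr2a (1.75 after -1.66 at E18.5), Ovol2 (1.74 after -1.59 at P3), Adrb1 (1.68 after -2.67 at E18.5), Rgs4 (1.63 after -3.07 at P1), the ephrin Efna5 (1.61 after -1.55 at E18.5) and Npas4 (1.5004 after -1.74 at P3). Those higher in Tle4 CThPN were the histone gene Hist1h2bc (-1.86 after 1.65 at P1), Gabrg3 (-1.59 after 2.33 at P3), Plcxd3 (-1.57 after 2.13 at P7), Fam43a (-1.51 after 1.66 at P7) and Dok5 (-1.503 after 1.79 at P1).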

How the results depend on the processing

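The counts at P48, 253 genes towards Cux2 CPN and 271 towards Tle4 CThPN, stayed within 1.5 times under a pseudocount of 0.1 (274 and 290), median ratio scaling (250 and 273), no expression minimum (298 and 333), without genes of up to 300 nt (245 and 261) and, chosen after seeing the data, with protein-coding genes over 300 nt only (231 and 248) or without the genes of the lists for other cell types (245 and 264). They moved further with a minimum of 30 FPKM (116 and 123), a limit of 1 (494 and 435) and, for Tle4 CThPN, with a limit of 2 (169) and a pseudocount of 5 (170, against 175 for Cux2 CPN). These settings admit fewer or more genes by construction. With a pseudocount of 5, 131 of the CPN-higher genes were past 1.5 at P21, 53 at P7 and 20 at E18.5, and 116, 46 and 39 of the CThPN-higher genes. With a limit of 1 at the earlier age, 61 CPN-higher genes differed at E18.5. List members past the limit numbered 178, and 255 with a limit of 1. Of 192 named genes past 1.5, 192 remained so with a pseudocount of 0.1, 156 with 5 and 191 after scaling (Npas4 went from 1.5004 to 1.49).

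No paired analysis was possible because the table holds 1 pooled value per group, and for the same reason the settings without single replicates were not run. The values cover 1 genotype per class, so the class, the Cre line and its labelling cannot be told apart. The depth of each library is unknown, so the counting error of low FPKM was not computed.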

Other observations

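Few genes differed in their P48 direction at P48 alone. Past 1.5 at P48 and under 0.5 in that direction at the 5 other ages were 3 genes towards Cux2 CPN and 15 towards Tle4 CThPN, of which 8 have more than 300 nt. Under 0.5 in either direction at those ages were 1 of the 3, Ptgds, and 1 of these 8, Fam40b. The 3 were Ptgds, which encodes prostaglandin D synthase (59.4 FPKM in Cux2 CPN against 4.01 FPKM in Tle4 CThPN), the lipocalin Apod (13.3 and 3.37 FPKM) and the activity-induced factor Npas4 (51.4 and 17.5 FPKM), which falls below the limit after median ratio scaling and was higher in Tle4 CThPN by more than 1.5 at P3. Transferrin (Trf), at 16.5 and 2.14 FPKM, had been higher in Tle4 CThPN at P21, at 7.62 against 2.24 FPKM. Ptgds, Apod and Trf are known from oligodendrocytes among other cells. The sum of the oligodendrocyte lineage markers went from 161 to 218 FPKM in Cux2 CPN, while Tle4 CThPN went from 299 to 117 FPKM between P21 and P48. The part of these cells in the differences was not tested.

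The 8 genes towards Tle4 CThPN were Necab2, Mas1, Acta2, Fam40b, Wwox, Ccnd1, Wisp1 and Fads2. The neuronal calcium-binding protein Necab2 had 2.99 FPKM in Cux2 CPN against 22.2 FPKM in Tle4 CThPN, against 5.18 and 7.25 FPKM at P21. The angiotensin(1-7) receptor Mas1 had 3.29 and 17.3 FPKM, and the fatty acid desaturase Fads2 28.1 and 82.0 FPKM. Gal, the galanin precursor, was listed at 0 in Cux2 CPN at P21 and P48 and went from 0.05 to 11.5 FPKM in Tle4 CThPN.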
